A study of Mus musculus with 12 samples.

Results

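The mitochondrial respiratory chain is built from subunits encoded in the mitochondrial genome and from a larger number encoded in the nucleus. The 51 genes described here are a list of nuclear subunit genes, 29 of complex I, 4 of complex II, 6 of complex III and 12 of complex IV, with Ndufa4, an accessory subunit long placed in complex I, counted in complex IV. They were chosen by name out of 21938 protein-coding genes of the GENCODE M21 annotation on the mm10 genome. No measured value was used as a criterion, but earlier results of these data were known. A gene was counted as carrying a histone mark when a listed peak lay within 2500 bp of any of its annotated transcription starts.

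The peaks come from chromatin immunoprecipitation and sequencing (ChIP-seq) of mesenchymal stem cells (MSCs), labelled as bone-marrow cells and, by the study's methods, isolated from the limb bones of wild-type male C57BL/6N mice aged 3 to 5 months. All cells were first grown at 2% O2, sorted as CD45-/TER-119-/CD140a+/Sca-1+ cells (on day 12, by the labels), and then either kept at 2% O2 (hypoxia) or moved to 21% O2 (normoxia) for a week, so the normoxia cells share the early hypoxic culture. The 12 libraries formed 6 groups of 2, for acetylation of lysine 27 of histone H3 (H3K27ac), trimethylation of lysine 4 (H3K4me3) and the input chromatin at each oxygen level. Each of the 4 peak lists was made from both libraries of its group and carries a position and a score per peak, so sequencing depth is unknown here, no value has a replicate check, and no difference between the oxygen levels could be tested.

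The respiratory chain passes electrons from NADH (complex I) and succinate (complex II) through complex III and cytochrome c to complex IV, which reduces oxygen, and complexes I, III and IV pump protons as they do so. Because the subunits are needed in nearly every cell, most of their promoters are of the CpG-rich type found at housekeeping genes, and NRF-1, the ETS-family factor GABP and YY1 are known regulators of many of them. Several complex IV subunits exist as isoform pairs in which a broadly used gene has a partner used in few tissues. H3K4me3 marks promoters that are active or poised, and H3K27ac marks active promoters and enhancers.

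Across the series, the H3K4me3 lists held 14606 peaks in hypoxia and 14603 in normoxia, and the H3K27ac lists held 15203 and 14832. All 14600 H3K4me3 peaks shared by both oxygen levels had the same score in both, whereas 6365 of 14614 shared H3K27ac peaks did (43.6%). By the study's methods, peaks were called in a comparison of both oxygen levels, so the lists of a mark are not separate measurements. Equal H3K4me3 peaks and scores are therefore not agreement between independent calls. Peaks began and ended on a 500 bp grid, and no peak of either mark overlapped another only in part, so edges of the marks coincide by construction of the lists. The score of a peak was either a whole number between 50 and 160 or exactly 1000, and the share at 1000 depended on the chromosome, from 0% to 86.9% of a chromosome's peaks for H3K4me3 and from 0% to 42.2% for H3K27ac in hypoxia. The score of a peak was therefore read against the other peaks of its chromosome as well as against its whole list. Stromal markers carried H3K4me3 at 15 of 16 genes, whereas 0 of 10 muscle and heart markers did. H3K27ac lay at 13 of the 16 and at 1 of the 10, the troponin gene Tnnt3, with a score of 1000 in hypoxia and 60 in normoxia. Ptprc, which encodes the CD45 excluded by the sort, and the endothelial gene Pecam1 had no peak of either mark, and the endothelial receptor gene Kdr carried H3K4me3 alone. The Sca-1 gene Ly6a, a sorting marker, carried H3K27ac without H3K4me3.

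H3K4me3 was present at nearly all of the respiratory chain genes, and H3K27ac at a smaller share of them. H3K4me3 lay at 48 of 51 genes at both oxygen levels (94.1%, 95% Wilson interval 84.1 to 98.0, counting error only), against 59.6% of all protein-coding genes. H3K27ac lay at 28 genes in hypoxia (54.9%, 41.4 to 67.7), against 38.5% of all genes, and at 27 genes in normoxia (52.9%, 39.5 to 65.9), against 38%. Each gene with H3K27ac also had H3K4me3, so both marks were found at 28 genes in hypoxia and 27 in normoxia, against 37.3% and 36.8% of all genes. Among genes with H3K4me3, the share with H3K27ac in hypoxia was 58.3% for the respiratory chain (44.3 to 71.2) and 62.6% for all genes, and in normoxia it was 56.25% and 61.8%. The higher share of respiratory chain genes with H3K27ac thus went with their higher share with H3K4me3, and given H3K4me3 the share was near the background.

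**Figure D1:**
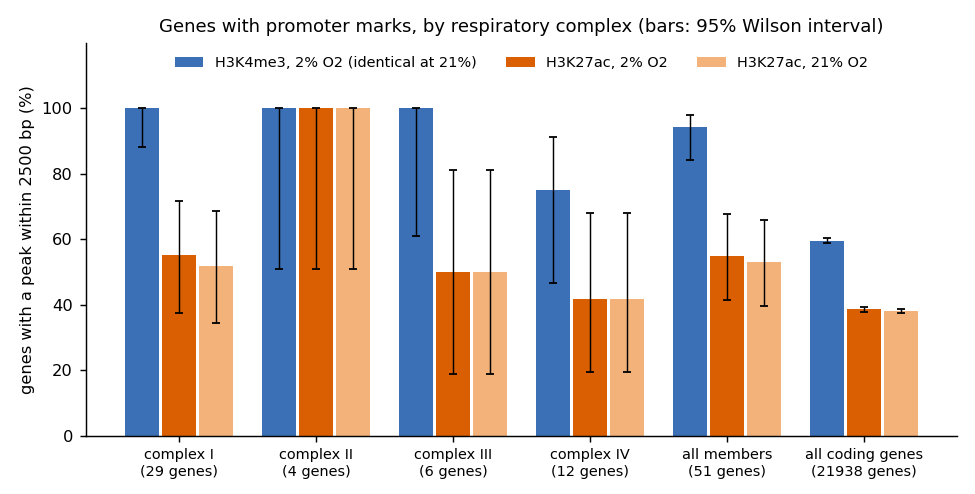
Share of genes with a listed peak within 2500 bp of a start (vertical axis, percent) for each respiratory complex, all 51 members and all protein-coding genes. Blue bars stand for H3K4me3, dark and light orange bars for H3K27ac at 2% and 21% O2, and lines for 95% Wilson intervals. H3K4me3 reached 100% in complexes I, II and III and 75% in complex IV, and H3K27ac ranged from 41.7% in complex IV to 100% in complex II.

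The 3 genes with no peak of either mark were Cox4i2, Cox6a2 and Cox7a1, each the tissue-restricted partner of a broadly used subunit gene. Cox4i2 encodes the form of subunit 4 best known from lung, and Cox6a2 and Cox7a1 encode the forms of subunits 6a and 7a used in heart and skeletal muscle. The promoters of the 3 pairs are shown here because they separate the marked from the unmarked genes within a subunit family. Each sequence spans 250 bases before to 50 bases after the representative start, is written 5′ to 3′ along the gene's strand, comes from the mouse genome assembly of the files' build, and has its CpG dinucleotides in capitals. The windows are chr8:120667972-120668271 on the plus strand and chr2:152753923-152754222 on the plus strand for subunit 4, chr5:115348932-115349231 and chr7:128206338-128206637, both on the minus strand, for subunit 6a, and chr9:79759829-79760128 on the minus strand and chr7:30183894-30184193 on the plus strand for subunit 7a.
Cox4i1: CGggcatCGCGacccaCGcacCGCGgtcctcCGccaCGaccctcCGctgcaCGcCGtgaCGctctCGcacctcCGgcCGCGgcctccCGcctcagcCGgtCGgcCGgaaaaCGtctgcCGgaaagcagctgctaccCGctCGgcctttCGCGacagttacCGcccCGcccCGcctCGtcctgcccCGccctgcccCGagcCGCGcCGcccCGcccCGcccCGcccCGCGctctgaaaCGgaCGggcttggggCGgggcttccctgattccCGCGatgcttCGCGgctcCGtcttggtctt
Cox4i2: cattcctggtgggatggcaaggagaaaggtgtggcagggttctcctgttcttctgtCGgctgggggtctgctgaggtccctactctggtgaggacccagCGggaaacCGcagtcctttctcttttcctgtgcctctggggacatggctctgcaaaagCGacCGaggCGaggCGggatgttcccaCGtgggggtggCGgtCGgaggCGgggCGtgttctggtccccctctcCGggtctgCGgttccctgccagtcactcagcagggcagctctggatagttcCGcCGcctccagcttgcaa
Cox6a1: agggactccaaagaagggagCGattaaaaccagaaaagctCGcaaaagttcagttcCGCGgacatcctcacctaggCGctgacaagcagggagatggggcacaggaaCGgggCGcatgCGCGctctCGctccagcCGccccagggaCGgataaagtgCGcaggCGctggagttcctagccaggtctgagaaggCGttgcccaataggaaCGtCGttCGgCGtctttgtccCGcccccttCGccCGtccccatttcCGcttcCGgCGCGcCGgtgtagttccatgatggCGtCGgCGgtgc
Cox6a2: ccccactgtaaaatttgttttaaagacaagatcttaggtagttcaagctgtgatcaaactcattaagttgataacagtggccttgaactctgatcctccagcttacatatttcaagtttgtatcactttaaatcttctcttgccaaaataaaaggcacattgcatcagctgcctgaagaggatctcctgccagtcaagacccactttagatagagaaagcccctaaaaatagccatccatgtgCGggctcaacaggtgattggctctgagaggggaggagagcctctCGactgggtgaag
Cox7a2: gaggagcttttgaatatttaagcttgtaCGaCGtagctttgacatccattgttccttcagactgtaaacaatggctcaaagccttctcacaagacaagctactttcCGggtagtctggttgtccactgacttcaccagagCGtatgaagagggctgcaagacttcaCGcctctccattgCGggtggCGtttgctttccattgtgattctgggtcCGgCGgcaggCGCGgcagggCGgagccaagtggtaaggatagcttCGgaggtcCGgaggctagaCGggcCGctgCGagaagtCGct
Cox7a1: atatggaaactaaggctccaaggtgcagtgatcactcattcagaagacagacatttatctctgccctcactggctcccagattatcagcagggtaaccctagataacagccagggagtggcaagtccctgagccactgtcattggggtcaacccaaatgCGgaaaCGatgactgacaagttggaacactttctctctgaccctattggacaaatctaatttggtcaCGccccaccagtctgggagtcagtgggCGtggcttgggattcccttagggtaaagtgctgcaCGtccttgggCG
The Cox4i1 window holds 48 CpGs and the Cox4i2 window 16, the Cox6a1 window 30 and the Cox6a2 window 2, and the Cox7a2 window 18 and the Cox7a1 window 6. In each pair the gene with H3K4me3 had the more CpG-rich window.

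Cox4i1 lay in a 4000 bp H3K4me3 peak, chr8:120666001-120670000, and the same interval was listed for H3K27ac with a score of 139 in hypoxia and 114 in normoxia. Around Cox4i2, the nearest H3K4me3 peak was 14173 bp away and held the start of Id1, an inhibitor of helix-loop-helix factors, and the nearest H3K27ac peak was 11673 bp away. The pair thus differed in both marks at both oxygen levels. Cox6a1 lay in a 3000 bp H3K4me3 peak, chr5:115347001-115350000, with no H3K27ac peak closer than 5981 bp, where the starts of Gatc and Triap1 lie. For Cox6a2 the nearest peak of either mark was 30114 bp away, at the start of Armc5. Among these 3 pairs, subunit 6a was therefore the one whose broadly used gene carried H3K4me3 alone. Cox7a2 lay in a 2500 bp peak of both marks, chr9:79758501-79761000, with H3K27ac scores of 128 in hypoxia and 118 in normoxia. The nearest peak of either mark to Cox7a1 was 8807 bp away and held the start of Capns1, a calpain subunit. That peak had an H3K27ac score of 1000 in hypoxia and 73 in normoxia. For all 3 genes the distances were the same at both oxygen levels.

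Other isoform genes, outside the 51 except for Ndufa4 and Cox6b1, were read in the same way. Of 6 further tissue-restricted genes, Cox7b2, Cox8b, Cox8c and Cyct had no peak of either mark within 2500 bp. Cox8b is used in muscle and brown fat, and Cox7b2, Cox8c and Cyct are testis forms, Cyct encoding testis cytochrome c. Cox6b2, another testis form, carried H3K4me3 with a score of 118 and no H3K27ac, with its nearest H3K27ac peak 10972 bp away at the start of Kmt5c. Ndufa4l2, the Ndufa4 paralogue known as a target of hypoxia-inducible factors, carried both marks, with an H3K4me3 score of 1000 at both oxygen levels and an H3K27ac score of 138 in hypoxia and 104 in normoxia. Ndufa4 itself carried both marks with an H3K27ac score of 124 at both levels. Of the broadly used partners, Cox8a and the cytochrome c gene Cycs carried both marks, and Cox6b1 and Cox7b carried H3K4me3 alone.

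**Figure D2:**
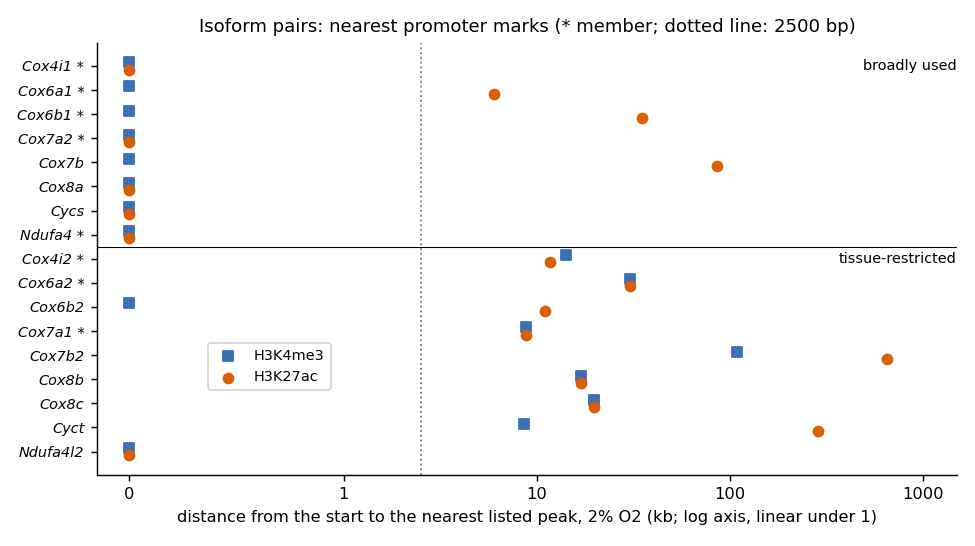
Distance in kb (horizontal axis, logarithmic above 1 kb) from the start of each isoform gene to the nearest listed H3K4me3 peak (blue squares) and H3K27ac peak (orange circles) at 2% O2. Genes with an asterisk belong to the 51, and the dotted line is the 2500 bp limit. All 8 broadly used genes lie at 0 for H3K4me3, and of the 9 tissue-restricted genes Cox6b2 and Ndufa4l2 do.

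Complex I, the NADH dehydrogenase, carried H3K4me3 at 29 of 29 genes. H3K27ac lay at 16 of them in hypoxia and 15 in normoxia. The genes of the electron-entry and quinone-binding arm were divided. Ndufs1, Ndufs3, Ndufs8 and Ndufv2, which encode core subunits, had both marks, and so did Ndufs4, an accessory subunit whose loss causes a Leigh-like disease. Ndufv1, which encodes the subunit that binds NADH and flavin, had H3K4me3 alone, as did the core subunit gene Ndufs7 and the accessory subunit genes Ndufs6 and Ndufv3. Ndufs5, an accessory subunit of the membrane arm, also had H3K4me3 alone. In the A series of accessory subunits, Ndufa1, Ndufa3, Ndufa5, Ndufa8, Ndufa9 and Ndufa10 had H3K4me3 alone, and in the B series, which belongs to the membrane arm, Ndufb6 and Ndufb8 did. Ndufs1 is shown with its promoter, chr1:63176773-63177072 on the minus strand, because it shared the highest H3K27ac score of the list and its start lies 3 bp from the start of Eef1b2, which encodes a translation elongation factor subunit.
Ndufs1: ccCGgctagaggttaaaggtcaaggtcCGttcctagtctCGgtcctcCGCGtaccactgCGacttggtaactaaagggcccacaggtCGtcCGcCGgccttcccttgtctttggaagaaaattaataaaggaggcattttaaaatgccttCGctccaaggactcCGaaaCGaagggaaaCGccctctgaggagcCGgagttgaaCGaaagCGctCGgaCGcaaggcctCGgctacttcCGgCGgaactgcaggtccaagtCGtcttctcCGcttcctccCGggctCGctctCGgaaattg
Its 3500 bp peak, chr1:63175001-63178500, was listed for both marks at both oxygen levels. The H3K27ac score of that peak was 1000 in both lists and the H3K4me3 score was 131.

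Complex II, succinate dehydrogenase, also belongs to the citric acid cycle and is encoded wholly in the nucleus. All 4 of its genes carried both marks at both oxygen levels. Sdha, the flavoprotein, had an H3K27ac score of 61 in hypoxia and 60 in normoxia. Sdhb, the iron-sulfur subunit, had scores of 103 and 101. Of the membrane anchors, Sdhc had scores of 117 and 107, and Sdhd had a score of 55 in both lists. Sdha and Sdhd were thus marked by peaks near the lower end of the score, which was 50. The Sdhd promoter, chr9:50603763-50604062 on the minus strand, is shown as an example of a start shared with an oppositely directed gene, Timm8b, a mitochondrial import factor whose start is 98 bp away.
Sdhd: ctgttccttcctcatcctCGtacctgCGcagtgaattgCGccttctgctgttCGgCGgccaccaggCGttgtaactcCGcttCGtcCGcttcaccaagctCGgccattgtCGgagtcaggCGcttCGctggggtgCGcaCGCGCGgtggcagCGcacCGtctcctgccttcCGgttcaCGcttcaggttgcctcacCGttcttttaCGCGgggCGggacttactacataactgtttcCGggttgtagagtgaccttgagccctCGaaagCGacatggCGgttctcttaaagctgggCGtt
This window holds 30 CpGs.

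Complex III, which passes electrons from ubiquinol to cytochrome c, carried H3K4me3 at 6 of 6 genes and H3K27ac at 3 of them. Uqcrc2, a core protein, and Uqcrh, the hinge protein, had H3K27ac scores of 1000 in hypoxia, and Uqcrq, a small accessory subunit, had 116. The genes with H3K4me3 alone were Cyc1, which encodes cytochrome c1, Uqcrfs1, which encodes the Rieske iron-sulfur protein, and Uqcrc1, the other core protein. The nuclear-encoded redox subunits Cyc1 and Uqcrfs1 were thus both in this state, as were 4886 of the 13074 protein-coding genes with H3K4me3 in hypoxia. In complex IV, cytochrome c oxidase, 9 of 12 genes carried H3K4me3 and 5 carried H3K27ac at both levels. These 5 were Ndufa4, Cox4i1, Cox5a, Cox7a2 and Cox7c. Cox5b, Cox6a1, Cox6b1 and Cox6c had H3K4me3 alone.

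The 20 genes with H3K4me3 alone in hypoxia differed widely in how far away the nearest H3K27ac peak was. The distance had a median of 27644 bp and ran from 4145 bp (Cox6c) to 166426 bp (Ndufb8). It was under 10 kb at 6 of the genes, with Cyc1 at 5478 bp, Cox6a1 at 5981 bp and Ndufv3 at 6615 bp next after Cox6c, and over 50 kb at 8. The distances were not computed for all 4886 protein-coding genes with H3K4me3 alone, so whether these are usual is not known. Just inside the 2500 bp limit lay Ndufb7, whose H3K27ac peak began 1830 bp after its start and reached over Tecr, an enzyme gene of fatty acid elongation. At the other 27 genes with H3K27ac the peak covered the start. With touching peaks joined, it did so at 7826 of 8190 protein-coding genes with H3K27ac near the representative start.

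The oxygen levels differed in the presence of a peak at 1 gene. Ndufa2, an accessory subunit of complex I on chromosome 18, had a 3000 bp H3K27ac peak in hypoxia, from 1443 bp before to 1556 bp after its start, that was absent from the normoxia list, where the nearest H3K27ac peak was 8057 bp away. The score of that peak was 65, against a lowest listed score of 50, and the H3K4me3 peak over the same interval had a score of 127 in both lists. The interval also holds the start of Ik, a splicing factor gene 99 bp from Ndufa2 and on the other strand. A hypoxia-only H3K27ac peak was thus found at 1 of 51 genes (1.96%), against 1.52% of all protein-coding genes. A normoxia-only H3K27ac peak was found at 0 of 51, against 0.346%, and condition-specific H3K4me3 peaks at 0 of 51, against 0 of all genes. With none at any protein-coding gene, the H3K4me3 count says nothing particular about these 51.

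H3K27ac scores could be set side by side at the 27 genes with a peak in both lists. The score was lower in normoxia at 13 genes (48.1%), against 35.6% of the 8316 protein-coding genes with H3K27ac in both lists. It was higher at 3 genes (11.1%), against 6.55%, and equal at 11 (40.7%), against 57.8% of those genes. Among all shared H3K27ac peaks, 39.9% scored lower in normoxia (33.7% to 47.2% by chromosome) and 16.6% higher. In hypoxia the upper quartile of the 8316 genes lay at the highest listed score, percentile 88.9, against 70.1 for the 27 genes. A gene at that score in both lists cannot count as lower, in score or percentile. The shares of the 27 and of all genes are therefore not like for like, and they carry no interval. Some of the falls at the 13 genes were small, down to 1 in score. Of the 13 genes, 10 were also lower in percentile within the list and 11 within the chromosome. The percentile within the list was thus lower at 37.0% of the 27 genes, against 26.7% of all such genes. The median score went from 120 in hypoxia to 113 in normoxia, and from 132 to 128 over all such genes. The median percentile of the score within its list was 54.0 in hypoxia and 56.3 in normoxia for the respiratory chain genes, and 68.0 and 66.8 for all genes. Within their own chromosomes, the medians were 56.5 and 56.5 for the respiratory chain genes and 76.0 and 69.4 for all genes. In both lists the median of the respiratory chain genes thus lay below that of all genes with H3K27ac.

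The largest fall in percentile was at Ndufa7, an accessory subunit of complex I, whose score was 92 in hypoxia and 60 in normoxia (percentile 39.0 to 13.5). Next came Cox4i1, with scores of 139 and 114 (75.3 to 56.8), and Ndufa13, also known as the cell death regulator GRIM-19, with 131 and 104 (66.4 to 51.2). Uqcrc2 left the top score, going from 1000 to 142, which was a fall from percentile 88.9 to 79.9. The largest rise was at Ndufb3, a membrane-arm subunit, from 120 to 1000 (54.0 to 90.6). Uqcrq followed with 116 and 131 (52.1 to 71.5), and then Ndufb2 (57.4 to 63.4) and Ndufa4 (56.4 to 62.3), although their scores of 125 and 124 were the same in both lists. Among peaks of the same chromosome, Ndufa7 went from 38.6 to 12.8, Cox4i1 from 85.4 to 56.5, Ndufa13 from 69.0 to 50.9, Ndufb3 from 56.8 to 86.8 and Uqcrq from 50.2 to 74.0, each in the same direction as in the whole list. Ranked in this way, the largest falls were at Cox4i1, Ndufa7 and then Ndufa6, an accessory subunit of complex I, which went from 86.2 to 60.8 with scores of 137 and 125. At the top of the list in hypoxia, Ndufs1, Uqcrc2, Uqcrh and Cox5a shared the score of 1000. At its foot were Ndufs4 with 53, Sdhd with 55 and Cox7c with 60, and these 3 scores were the same in normoxia. The order at the top depended on the chromosome, since within their chromosomes Ndufv2 (90.5), Ndufa6 (86.2) and Cox4i1 (85.4) ranked above Ndufs1 (84.9), Uqcrh (80.3), Cox5a (79.3) and Uqcrc2 (79.3). Scores at 1000 cannot be ordered, and the size of a score difference has no stated unit.

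**Figure D3:**
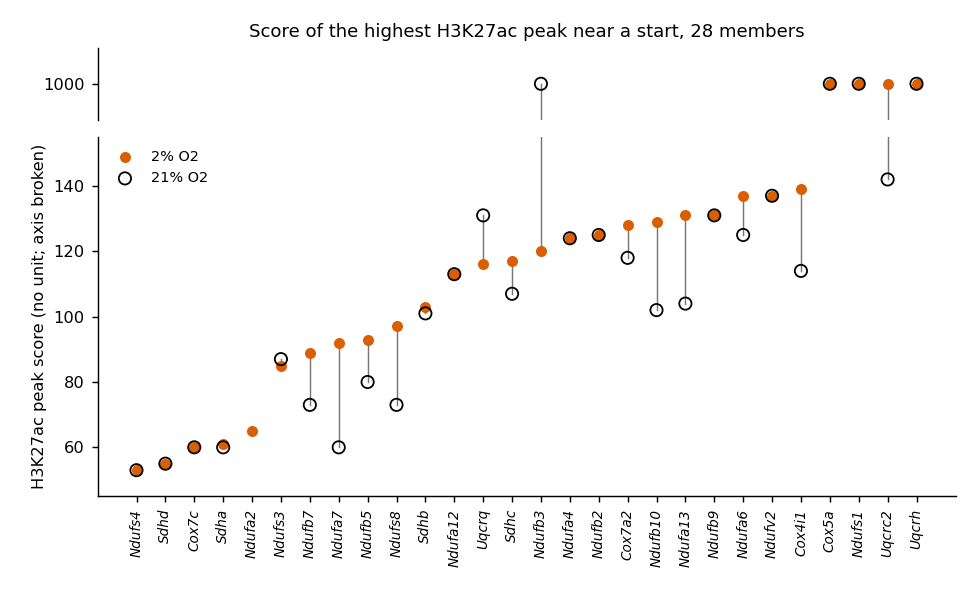
Score of the highest H3K27ac peak within 2500 bp of a start (vertical axis, no unit, broken below 1000) for the 28 genes with such a peak, at 2% O2 (filled) and 21% O2 (open), ordered by the score at 2%. Lines join the values of a gene. Ndufa2 has no open circle, 13 genes are lower at 21% O2, and Ndufb3, Uqcrq and Ndufs3 are higher.

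The H3K4me3 domain, formed by joining listed peaks that touch, had a median width of 3000 bp at the 48 marked genes (middle 50% 2500 to 3000, range 2000 to 6500), and of 3000 bp (2500 to 3500) at all 12714 genes with a domain. All 48 domains covered the representative start, as did 12360 of the 12714 over all genes. The 48 domains began at a median of 1156.5 bp before that start and ended 1685.5 bp after it. Of the 48, 39 reached farther into the gene than away from it (81.2%), against 78.2% of all genes. The widest domain, 6500 bp, was at Ndufb10, and it also held the start of Rps2, a ribosomal protein gene. Next were Sdhb with 6000 bp, where a 3500 bp peak of score 59 touched the start peak on the side before the gene, and Ndufs6 with 5500 bp, shared with the mitochondrial ribosomal protein gene Mrpl36. The narrowest, at 2000 bp, were Ndufa3, Ndufa8 and Ndufs5, all without H3K27ac.

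H3K27ac domains had a median width of 3000 bp at the 28 genes (middle 50% 2500 to 4000), against 3500 bp (2500 to 5500) at all 8190 genes with a domain. The widest was at Ndufa13, 25000 bp in hypoxia and normoxia, made of a 4500 bp start peak and a 20500 bp peak over the neighbouring gene Gatad2a. At Ndufv2, a 3000 bp start peak touched a 10000 bp peak within the gene body, for 13000 bp in all. The 12000 bp domain at Ndufb7 was the one that lay wholly after the start. The narrowest domains, at 2000 bp, were those of Ndufa12, Ndufs4, Sdhc and Sdhd.

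In genes with both marks, H3K27ac covered the whole H3K4me3 domain at 16 of 28 genes in hypoxia (57.1%), against 77.9% of 7983 protein-coding genes. At Ndufb7 it covered none of it, and at 11 genes the cover was partial, from 41.7% of the domain at Sdhb to 83.3% at Ndufb3, Ndufb5, Sdha and Uqcrc2. The remainder without H3K27ac lay on the gene-body side at 10 of these 11, which were Ndufa12, Ndufb3, Ndufb5, Ndufb9, Ndufs4, Sdha, Sdhc, Sdhd, Uqcrc2 and Uqcrh, and was 500 or 1000 bp long there. At Sdhb it lay on the other side and was 3500 bp long. Among the 1559 of the 7983 genes with partial cover, the remainder lay on the gene-body side alone at 917 (58.8%). All 4 complex II genes were among the 11. Partial cover is resolved only to the 500 bp step of the lists, and these differences in share were not tested.

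**Figure D4:**
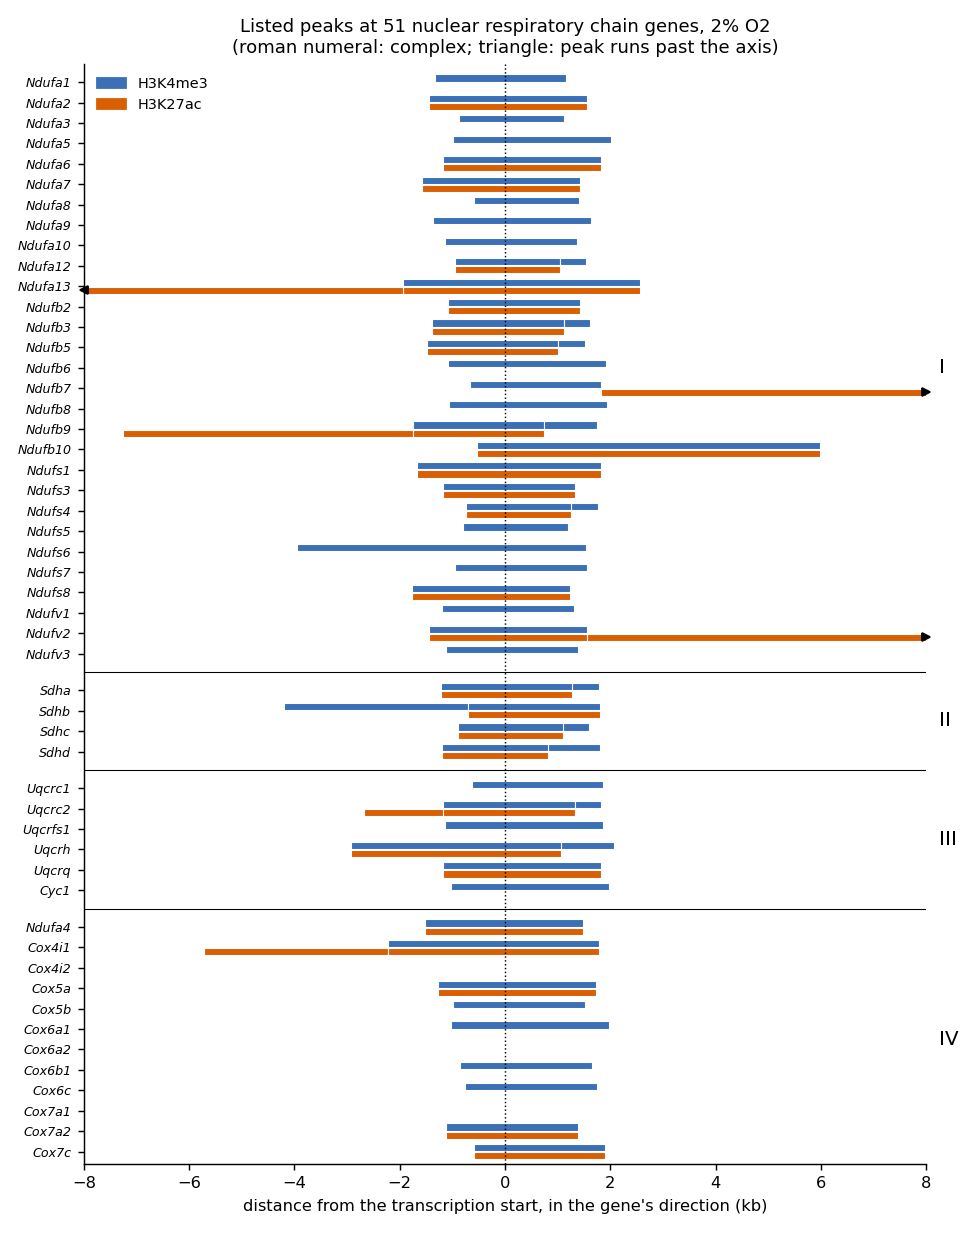
Listed peaks within 2500 bp of a start at each of the 51 genes at 2% O2, drawn by distance from the representative start in kb along the direction of the gene, with H3K4me3 in blue, H3K27ac in orange, white gaps where touching peaks meet and black triangles where a peak runs past the axis. Cox4i2, Cox6a2 and Cox7a1 are empty, and at 10 genes the blue bar runs on past the end of the orange bar on the right, by 500 or 1000 bp.

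Many of the starts were shared with an oppositely directed neighbour. A protein-coding gene started head to head within 1000 bp at 17 of 51 genes (33.3%, 22.0 to 47.0), against 9.84% of all protein-coding genes. Among genes with H3K4me3 the share was 35.4% (17 of 48), against 15.7%. The distance between the starts ran from 3 bp at Ndufs1 to 374 bp at Ndufa13, whose partner is Tssk6, a testis kinase gene. Several partners also serve protein synthesis or mitochondria. Ndufa7 was paired with Rps28 at 10 bp, Ndufb5 with Mrpl47 at 157 bp, Ndufs6 with Mrpl36 at 29 bp and Sdhd with Timm8b. Further pairs were Ndufa1 with Rnf113a1 (82 bp), Ndufa2 with Ik, Ndufa5 with Asb15 (131 bp), Ndufa8 with Morn5 (52 bp), Ndufb3 with Fam126b (61 bp), Ndufb9 with Tatdn1 (26 bp), Ndufs3 with Kbtbd4 (84 bp), Sdha with Ccdc127 (29 bp), Uqcrh with Lrrc41 (198 bp) and Cox4i1 with Emc8 (101 bp). Both marks were found at 13 of these 17 genes in hypoxia, and at 1593 of all 2158 protein-coding genes with such a neighbour. By state, a head-to-head partner was found at 13 of 28 genes with both marks, at 4 of 20 with H3K4me3 alone and at 0 of 3 with neither, and over all protein-coding genes at 19.5%, 9.48% and, for genes without H3K4me3, 1.15%. At a shared start the peak cannot be assigned to either gene, which holds for the hypoxia-only peak at Ndufa2 and for the score changes at Ndufa7, Cox4i1, Ndufa13 and Ndufb3.

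Annotated alternative starts rarely changed the reading. At 46 of the 48 marked genes every start of the basic annotation lay inside an H3K4me3 peak. The exceptions were Ndufb5, with 2 of 3 starts inside and its starts spread over 7766 bp, and Ndufs5, with 2 of 3 inside over 1876 bp. Neither Cox4i2 nor Cox7a1, with 2 starts each, had a marked start.

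The promoters differed in CpG content along with their marks. The ratio of observed to expected CpG in the 300 bp window had a median of 0.807 over the 51 genes and 0.557 over all 21928 protein-coding promoters read. It was 0.843 at genes with both marks, 0.795 at genes with H3K4me3 alone, and 0.538, 0.304 and 0.140 at the unmarked Cox4i2, Cox7a1 and Cox6a2. Over all genes the medians were 0.807, 0.706 and, for genes with neither mark, 0.194. The highest ratio was 1.20, at Cox4i1. Low ratios also occurred at marked genes, with 0.327 at Ndufa5, 0.353 at Ndufb10, 0.360 at Sdhb and 0.377 at Ndufs4, all below Cox4i2, so the ratio alone did not separate marked from unmarked starts.

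**Figure D5:**
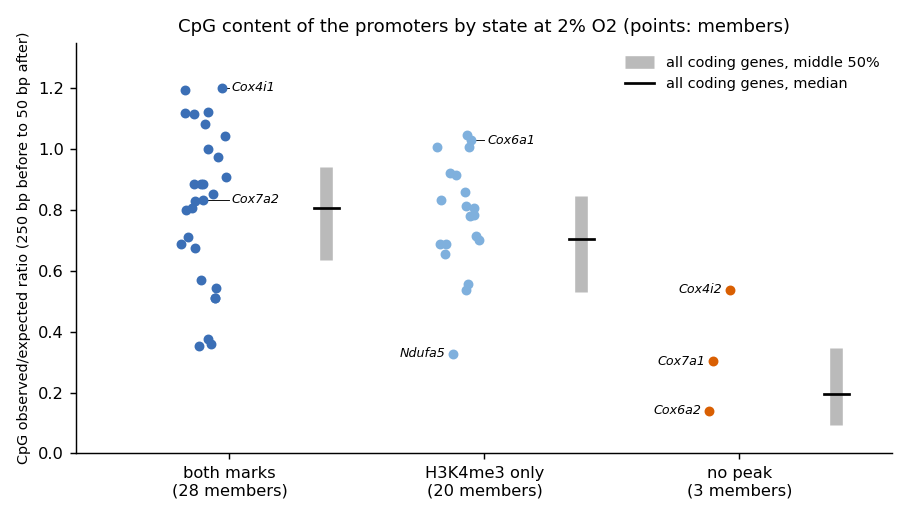
Ratio of observed to expected CpG (vertical axis) in the window from 250 bp before to 50 bp after the start, for each of the 51 genes (points) by its marks at 2% O2. Grey bars are the middle 50% and black lines the median of all protein-coding genes in the same state. The points with both marks have a median of 0.843 and the 3 unmarked genes lie at 0.538, 0.304 and 0.140.

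Motifs of known regulators were searched in the same windows on both strands, as a description of letters only. The ETS-family motif CCGGAAG was in 10 of 51 windows (19.6%), against 11.2% of all promoters and 17.0% of those with H3K4me3, and it is in the sequences printed for Ndufs1, Sdhd and Cox6a1, on the opposite strand as CTTCCGG. The YY1 motif AAGATGGC was in 6 windows (11.8%), against 3.09% of all and 4.48% of those with H3K4me3, at Ndufa2, Ndufa3, Ndufa9, Ndufb8, Ndufs7 and Sdhc. The NRF-1 motif GCGCATGCG was in 1 window, that of Cox6a1 (1.96%, against 2.51% of all and 3.42% of those with H3K4me3), and with a free base in its middle, GCGCANGCG, which includes the former, in 6 (11.8%, against 8.61% and 13.2%), at Ndufa8, Ndufs5, Sdha, Sdhd, Uqcrc1 and Cox6a1. At least 1 of the motifs of these 3 factors was in 20 of 51 windows (39.2%, against 20.3% of all promoters and 30.4% of those with H3K4me3). TATAAA was in 6 windows (11.8%, against 12.6% of all and 6.74% of those with H3K4me3). ACGTG, the core of sites for hypoxia-inducible factors, was in 10 windows (19.6%, against 20.4% of all and 25.6% of those with H3K4me3), Cox4i2 and Cox7a1 among them. Matches of ACGTG on opposite strands overlapped in the windows of Cox4i2 and of the marked genes Ndufa7, Ndufv1 and Uqcrq, each overlapping pair being a single CACGTG. Windows from 500 bp before to 100 bp after the start were also searched. GCGCATGCG was then in 4 of 51 (7.84%, against 2.91% of all promoters and 4.03% of those with H3K4me3). GCGCANGCG was in 11 (21.6%, against 10.4% and 16.0%), CCGGAAG in 16 (31.4%, against 14.3% and 21.5%) and AAGATGGC in 11 (21.6%, against 5.31% and 7.02%).

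Apart from the tissue-restricted isoforms described above, the other listed genes of oxidative phosphorylation all carried H3K4me3, and some carried H3K27ac. All 14 further subunit genes carried H3K4me3, and 8 carried H3K27ac in hypoxia and 7 in normoxia, the difference being Ndufc1, a complex I subunit, with a hypoxia-only peak of score 74. Of 16 ATP synthase genes, which encode the complex that makes ATP from the proton gradient, all carried H3K4me3 and 12 carried H3K27ac at both levels, Atp5d having a hypoxia-only peak beside shared ones. Of 38 assembly factor genes, all carried H3K4me3, and 25 carried H3K27ac in hypoxia and 26 in normoxia. The difference was Acad9, a complex I assembly factor, with a normoxia-only peak of score 68, while Coa7, a complex IV assembly factor, had a hypoxia-only peak beside a shared one. Of 13 regulator genes, all carried H3K4me3 and 9 carried H3K27ac at both levels, with a normoxia-only peak beside shared ones at Hif1a, which encodes a hypoxia-inducible factor subunit. Nrf1, Gabpa, Gabpb1 and Yy1, whose factors bind the motifs above, had both marks, whereas the mitochondrial transcription factor gene Tfam and the coactivator genes Ppargc1a and Ppargc1b had H3K4me3 alone. Next to these lists, the shares of the 51 genes with H3K27ac in hypoxia were 55.2% for complex I, 100% for complex II (4 genes), 50% for complex III and 41.7% for complex IV, against 75% for ATP synthase and 65.8% for assembly factors, with intervals that overlapped.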

How the data were processed

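Reads had been mapped by the authors to mm10 with bowtie2, with duplicates removed by Picard (both tools and the build are also in the submitters' processing notes, without versions), and peaks had been called with chromstaR, a hidden Markov model, in differential mode between the oxygen levels in sliding windows moved by 500 bp. Whether the yeast spike-in that the methods mention scaled the peak lists is not given in the sources used here. The authors deposited 1 list per mark and oxygen level, with a score per peak. The definition of this deposited score was not stated, so it was used only to rank peaks and to set values side by side. Input libraries have no list and were not analysed here.

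Starts came from the GENCODE M21 basic annotation. The representative start was that of the transcript ranked first by APPRIS class, consensus coding status, support level and length. A mark was counted with a peak within 2500 bp of any start, a peak specific to an oxygen level was one overlapping none in the other list of the mark, and touching peaks were joined into domains. Shares of genes carry 95% Wilson intervals. Promoter windows were cut from the mm10 genome sequence (GRCm38 patch release). Of the 51 genes, 40 have a promoter window in RefSeq and 25 of these starts lie within 50 bp. Python 3.11.15 with numpy 2.4.6, pandas 2.3.3 and scipy 1.17.1 was used, and peak assignment was tested on simulated peaks.

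No test was run, because the lists hold no replicate values. The 51 genes, the other lists and the motifs were chosen with earlier results of these data known. Genes were named by rule: those without a mark or with a condition-specific peak, the 3 widest and narrowest domains, the 3 highest and lowest H3K27ac percentiles and the 3 largest changes each way (ties all named), isoform pairs, genes sharing a start peak and examples per complex. Genes outside this rule, such as those with partial H3K27ac cover or with a motif, were named after their values were seen. The count over the blood and endothelial marker list and the partner in 1 head-to-head pair are not reported here.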

Additional observations from a re-analysis of the deposited data

How the results depend on the processing

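No paired analysis was possible because each list was made from both libraries of its group, and leaving out a library was not possible for the same reason. Of 94 values recomputed under alternatives, 83 stayed within the interval or spread of the reported value and 11 moved. The count of genes with a mark was unaffected in this sense by a limit of 1000 or 5000 bp, by peaks covering the start, by 1 start per gene, by joining peaks within 1000 bp or by all starts of the comprehensive annotation. Leaving out the lowest-scoring 25% of peaks left H3K4me3 at 80.4% of the 51 genes (41) at both oxygen levels (47.2% of all protein-coding genes), H3K27ac at 45.1% (23) in hypoxia and 43.1% (22) in normoxia (34.2% and 32.8%), both marks at 39.2% (20) and 37.3% (19) (28% and 26.9%), and no hypoxia-only H3K27ac peak (0 genes, as against Ndufa2). The HIF core motif was in 35.3% of the windows when these were widened, against 33.7% of all promoters. Because scores depend on the chromosome, the same filter within each chromosome was added after seeing the data, as were the comprehensive starts and the percentiles within a chromosome. It left H3K4me3 at 70.6% (36) in hypoxia and 72.5% (37) in normoxia (43.5% and 44.0% of all genes), H3K27ac at 45.1% (23) and 41.2% (21) (34.1% and 33.0%), both marks at 35.3% (18) and 33.3% (17) (25.5% and 24.9%), and again 0 hypoxia-only peaks. The lists give no depth, so a missing peak is not evidence that a mark is absent, and a gene listed at 1 oxygen level alone has no measured spread behind it.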
